A study of Homo sapiens with 6 samples.

Results

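RAB GTPases, the largest branch of the RAS superfamily of small GTPases, were examined in RNA-seq libraries of HGC-27, an established cell line from a human gastric carcinoma. The members were all rows of the deposited gene table whose symbol is RAB followed by a number and an optional letter and digit, and this name pattern, which uses no measured value, found 71 of 62703 genes. Of these, 63 are annotated as protein-coding and 8 as processed pseudogenes. The shControl group, labelled wild type, carried a control shRNA, and the shGXYLT2 group, labelled as a GXYLT2 knockdown, carried an shRNA against GXYLT2, a xylosyltransferase that adds xylose to O-linked glucose residues of Notch EGF repeats. Each group had 3 libraries, all from cells stably transfected and grown with 10% fetal bovine serum. The labels give neither the sequence of the shRNA nor whether a line was a clone or a pool, so the shRNA and the line that carries it cannot be told apart. They do not say that the libraries came from separate cultures either, and the spread on which every p-value rests is that among these libraries, which may be technical.

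RAB proteins act as switches of membrane traffic. Exchange factors load them with GTP on a given membrane, where they recruit effectors such as tethers, motors and sorting proteins, and GTPase-activating proteins end the active state. A C-terminal prenyl lipid holds a RAB on the membrane, and GDP dissociation inhibitors carry the inactive form through the cytosol. Each organelle has its own set of members: RAB1 serves traffic from the endoplasmic reticulum (ER) to the Golgi, RAB5 the early endosome, RAB7 the late endosome, RAB11 recycling, and RAB3 and RAB27 regulated secretion. In epithelial cells the family is known for its part in apical delivery, cilium formation and the recycling of integrins and growth factor receptors.

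The libraries held 17291103 to 24898399 estimated counts, and mitochondrial genes took 5.79% to 6.45% of them. The targeted transcript, GXYLT2, stood at 20.7, 22.8 and 20.2 CPM (counts scaled to a library of 1000000) in shControl and at 5.27, 6.27 and 5.34 CPM in shGXYLT2, which was 73.5% lower (log2 fold change -1.91, SE 0.109). The groups did not overlap, and the exact two-sided permutation test gave p = 0.1, the smallest that 3 against 3 libraries allow. Of 6 gastric lineage markers, MUC5AC, TFF1, TFF2 and GKN1 had no counts in any library, and the list summed to 1.99 to 2.46 CPM in shControl and 3.37 to 5.62 CPM in shGXYLT2, mostly MUC6. MUC6 was higher in shGXYLT2 (log2 fold change 1.03, edgeR adjusted p = 0.0029). The epithelial list (KRT8, KRT18, KRT19, EPCAM, CDH1) summed to only 4.31 to 5.39 CPM in shControl and 3.77 to 4.71 CPM in shGXYLT2. The fibroblast list (DCN, LUM, PDGFRB) summed to 361 to 373 CPM in shControl and 468 to 503 CPM in shGXYLT2, so the sum moved with the groups compared below. DCN and LUM made up nearly all of it, and both were higher in shGXYLT2 (log2 fold changes of 0.43 and 0.41, edgeR adjusted p of 3.9e-05 and 2.4e-04). PDGFRB went the other way, with 1.38, 1.41 and 1.06 CPM in shControl and 0.879, 0.692 and 0.449 CPM in shGXYLT2 (log2 fold change -0.90, edgeR adjusted p = 0.0806). Of the mesenchymal markers, VIM had 2669 ± 102 CPM in shControl and 2526 ± 94.5 CPM in shGXYLT2 (SD, n = 3; edgeR adjusted p = 0.387), and CDH2 had at most 5 counts in any library. The endothelial list (PECAM1, CDH5, VWF) summed to at most 0.24 CPM in any library, with PECAM1 and CDH5 at 0. The part of the fibroblast and gastric markers in the results was not tested.

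A broad set of RAB genes was transcribed in these cells. The 50 members with enough counts to be tested summed, with the low rows, to 2454, 2458 and 2393 CPM in shControl and to 2397, 2368 and 2363 CPM in shGXYLT2. Those ranges meet between 2393 and 2397 CPM, so the total overlapped between the groups. Divided by gene length, the levels of the tested members ran from 0.160 to 111 CPM per kilobase with a median of 8.42. The deposited length is shorter than the longest annotated 3' UTR for 6 of the 50, so levels per length are approximate.

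The highest level per length was that of RAB5C, an early endosome member, at 111 CPM per kilobase over all libraries. RAB1A followed at 90.8, RAB34 at 71.6, RAB7A at 66.5 and RAB1B at 59.8 CPM per kilobase. RAB34 acts at the Golgi and in cilium formation, and RAB7A is the main member of late endosomes. Of these abundant members, RAB5C had 132.4, 137.5 and 125.7 CPM in shControl and 129.9, 116.2 and 134.5 CPM in shGXYLT2. RAB34 had 73.5, 86.0 and 74.4 CPM in shControl and 84.0, 73.9 and 80.3 CPM in shGXYLT2. RAB7A had 199.8, 207.8 and 192.6 CPM in shControl and 194.8, 197.5 and 198.4 CPM in shGXYLT2. The groups overlapped for all 3 genes, with log2 fold changes of -0.06, 0.03 and -0.02, and none passed the test (edgeR adjusted p of 0.659, 0.858 and 0.852).

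**Figure D1:**
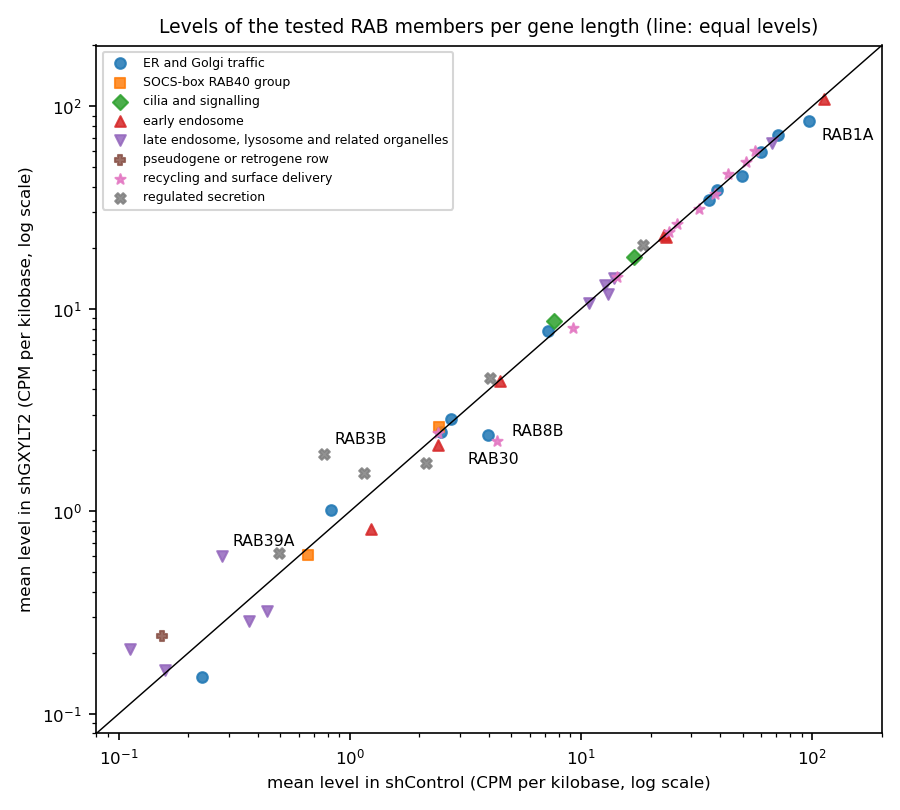
Mean level of each of the 50 tested RAB members in shControl (x axis) and shGXYLT2 (y axis), in CPM per kilobase on log scales; colours and shapes give the role class and the line marks equal levels. Plotted group means run from 0.112 (RAB39B) to 113 CPM per kilobase (RAB5C), both in shControl. Members lie along the line, with RAB3B and RAB39A above it and RAB8B, RAB30 and RAB1A below it.

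The remaining 21 rows did not have enough counts to be tested, and none of them exceeded 8 counts in any library. They were the 8 pseudogenes and 13 coding genes: RAB17, RAB19, RAB25, RAB31, RAB33A, RAB37, RAB3C, RAB40A, RAB41, RAB42, RAB44, RAB4A and RAB6C. Among them are RAB17 and RAB25, members known from polarised epithelia. In 9 rows every library had 0 counts, and 3 of those rows are the coding genes RAB4A, RAB41 and RAB44. A count of 0 allows a level of up to 0.120 to 0.173 CPM, taking 3 counts per library as the limit, which covers counting error only. RAB4A (chr1:229271062-229305894, plus strand, GRCh38), a recycling member, was listed at 0 in all 6 libraries, while its relative RAB4B had 2.28 to 3.08 CPM. Whether the RAB4A value reflects the cells or the way reads were assigned was not tested.

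Between shControl and shGXYLT2, 5 of the 50 tested members (10.0%) changed at an adjusted p below 0.05, against 12.2% of all 15693 tested genes (edgeR's quasi-likelihood test, Benjamini-Hochberg adjustment over all tested genes). The share of members called was thus near the background. RAB3B and RAB39A rose, 2 of 50 members against 5.31% of all genes, and RAB8B, RAB30 and RAB1A fell, 3 of 50 against 6.84%. At an unadjusted p below 0.05 in edgeR's test there were 9 members, and the share over all genes at that limit is not given here. The groups did not overlap for 17 of the 50 members, 6 of them higher and 11 lower in shGXYLT2. Over all genes they did not overlap for 30.4%, with 14.6% higher and 15.8% lower. Of the log2 fold changes, 25 lay above 0 and 25 below, with a median of 0.00015 against -0.0057 over all genes. Their median size was 0.10, against 0.14 over all genes. In bulk RNA such as this, fewer cells of a type and less RNA per cell cannot be told apart.

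**Figure D2:**
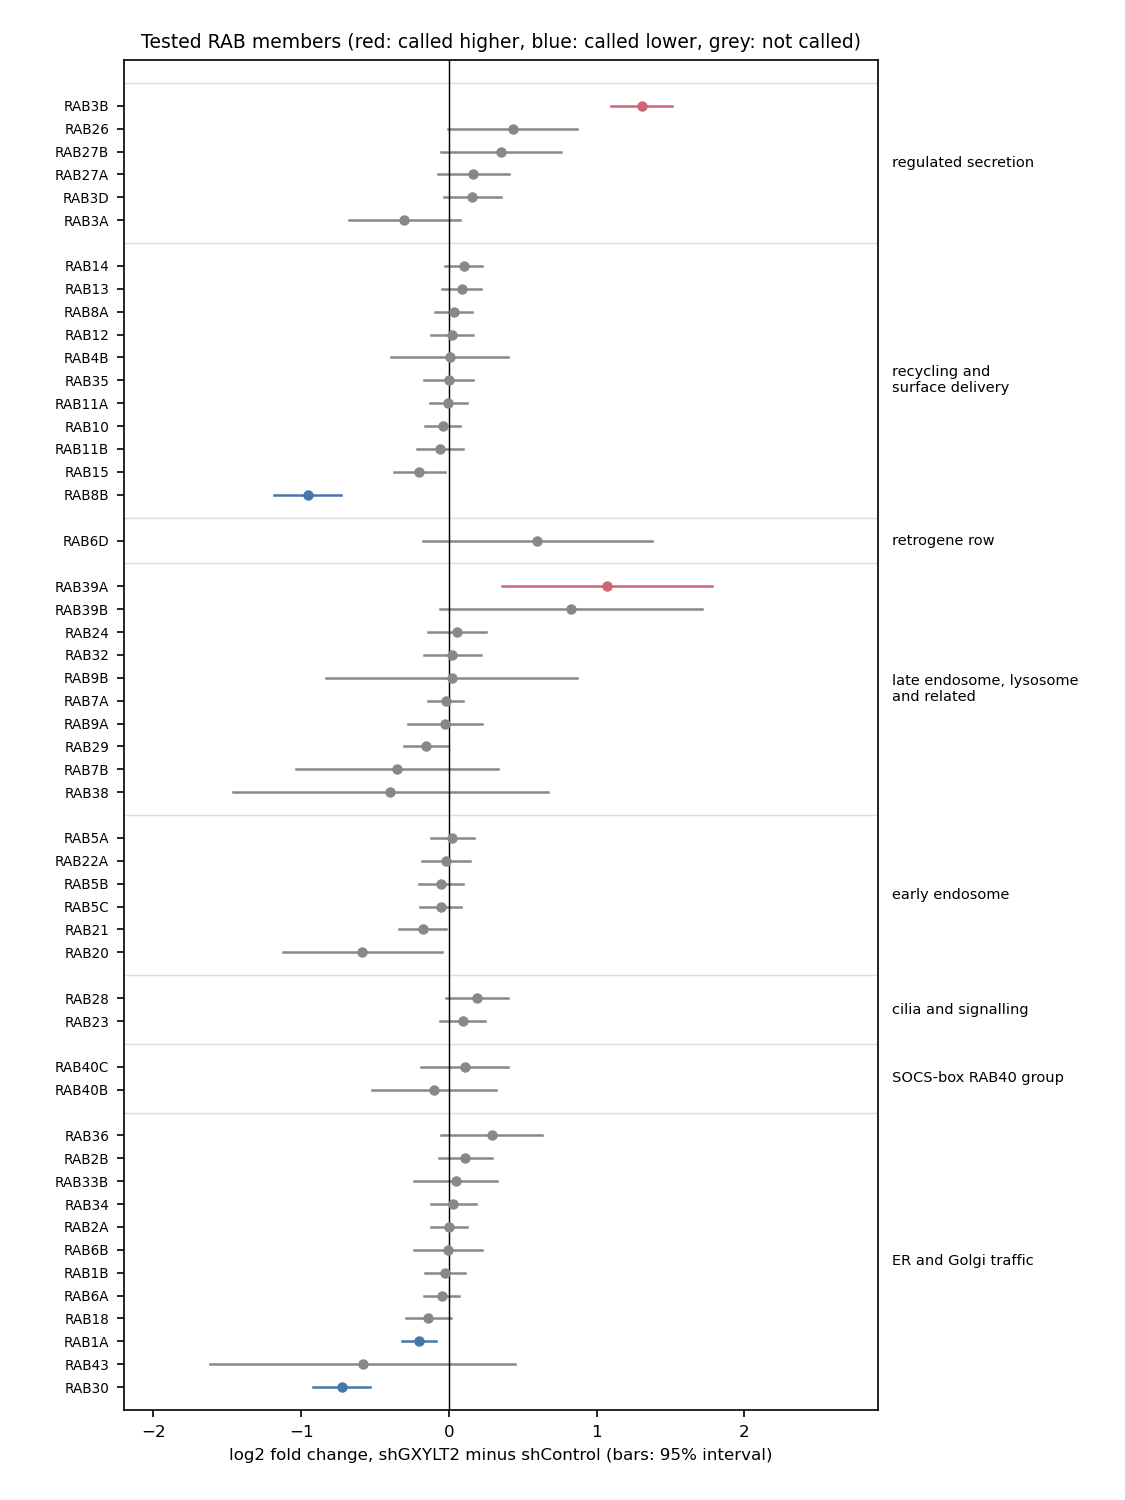
Log2 fold change (shGXYLT2 minus shControl) of the 50 tested RAB members by role class, with 95% intervals as bars; red marks members called higher, blue members called lower. RAB3B at 1.31 and RAB8B at -0.96 lie farthest from 0 among members with narrow intervals, and 35 of 50 members lie within 0.2 of 0.

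RAB3B, RAB8B and RAB30, the 3 called members that passed the test under every alternative run, each carry a long annotated 3' UTR that holds the 7-base word GACTCAT at least once. Their sites are shown because the word, which had been picked earlier on these same fold changes, occurs both in members that fell and in one that rose. Each line gives 30 bases of the transcript strand, 5′ to 3′, with the word in capitals, from the longest annotated 3' UTR of each gene in GENCODE 29 (GRCh38). The RAB8B site is at chr15:63263941-63263970 (plus strand), with the word starting at base 333 of a 3' UTR of 4163 bases. The RAB30 site is at chr11:82978606-82978635 (minus strand), with the word at base 3541 of 9032. The RAB3B sites are at chr1:51915548-51915577, chr1:51915471-51915500 and chr1:51915085-51915114 (minus strand), with the word at bases 4361, 4438 and 4824 of 11971.
RAB8B: gcacaatcttaGACTCATatttgcacactt
RAB30: tttcagttcatGACTCATactgaataaacg
RAB3B, first site: aagtgattcgtGACTCATtgtctcctcagt
RAB3B, second site: gaatggtcacaGACTCATcgattatcagat
RAB3B, last site: ctcctctgtctGACTCATgctctttcaaat

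Among the regulated secretion members, RAB3B rose most. RAB3B (ENSG00000169213, chr1:51907956-51990764, minus strand), a secretory vesicle GTPase, had 9.43, 9.32 and 10.8 CPM in shControl and 23.5, 26.3 and 23.5 CPM in shGXYLT2. Every shGXYLT2 library was above every shControl library. The means were 9.84 ± 0.814 and 24.4 ± 1.66 CPM (SD, n = 3), a 2.47-fold difference with a log2 fold change of 1.31 (SE 0.0984, 95% interval 1.10 to 1.51, edgeR adjusted p = 2.5e-08). It passed the test under all 13 alternatives that were run.

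The other RAB3 genes did not pass the test. RAB3A (chr19:18196784-18204074, minus strand), best known from synaptic vesicles, had 3.39, 2.93 and 3.26 CPM in shControl and 2.56, 2.48 and 2.74 CPM in shGXYLT2, with no overlap (log2 fold change -0.30, 95% interval -0.68 to 0.07, edgeR adjusted p = 0.316). RAB3D (chr19:11322046-11346270, minus strand), a member of secretory granules, had 17.5, 17.4 and 16.4 CPM in shControl and 20.8, 18.0 and 18.4 CPM in shGXYLT2, again without overlap (log2 fold change 0.16, 95% interval -0.03 to 0.35, edgeR adjusted p = 0.294). RAB3C reached at most 8 counts. Per deposited gene length, RAB3D made up most of the RAB3 signal in both groups, 86.4% ± 1.04 in shControl and 84.9% ± 1.29 in shGXYLT2. RAB3B made up 3.36%, 3.38% and 4.05% in shControl and 7.05%, 8.87% and 7.78% in shGXYLT2. These shares depend on the deposited lengths, 12780 bases for RAB3B and 924 bases for RAB3D, the latter below the 3352 bases of RAB3D's longest annotated 3' UTR. In CPM, without division by length, RAB3B was below RAB3D in shControl (9.84 against 17.1) and above it in shGXYLT2 (24.4 against 19.1), so which of the RAB3 transcripts is the more abundant there turns with the scale.

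The regulated secretion class (RAB3A to RAB3D, RAB26, RAB27A, RAB27B, RAB37) had 6 tested members of 8, of which RAB3B rose and none fell, with a median log2 fold change of 0.26. With only 6 tested, 1 call made 16.7%, against 12.2% of all genes. Its summed level was 45.8, 47.9 and 48.5 CPM in shControl and 66.7, 69.0 and 63.5 CPM in shGXYLT2. Without RAB3B the sums were 36.3, 38.6 and 37.7 CPM against 43.3, 42.7 and 40.1 CPM, still not overlapping. RAB26, a member of secretory granules, had 1.95, 1.99 and 1.85 CPM in shControl and 2.96, 2.16 and 2.69 CPM in shGXYLT2 (log2 fold change 0.43, edgeR adjusted p = 0.20). RAB27A and RAB27B, which dock secretory vesicles and lysosome-related organelles, had log2 fold changes of 0.17 and 0.35 (edgeR adjusted p of 0.401 and 0.269). The difference of the class sums thus combines 1 member past the test with smaller differences that did not pass it.

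Among members of recycling and surface delivery, RAB8B fell. RAB8B (ENSG00000166128, chr15:63189469-63267782, plus strand), which carries vesicles to the plasma membrane, had 20.1, 19.3 and 22.9 CPM in shControl and 10.9, 11.97 and 9.30 CPM in shGXYLT2, without overlap. The means were 20.8 ± 1.88 and 10.7 ± 1.35 CPM (SD, n = 3), which was 1.94-fold lower (log2 fold change -0.96, SE 0.108, 95% interval -1.18 to -0.73, edgeR adjusted p = 5.5e-06). It passed under all 13 alternatives. Its paralog RAB8A (chr19:16111629-16134234, plus strand), a regulator of cilium formation and polarised export, had 135.7, 135.9 and 128.7 CPM in shControl and 130.5, 133.3 and 145.3 CPM in shGXYLT2. The RAB8A groups overlapped, and its log2 fold change of 0.03 had a 95% interval of -0.10 to 0.16 (edgeR adjusted p = 0.805). Of the RAB8 signal per gene length, RAB8B made up 7.35%, 7.07% and 8.69% in shControl and 4.28%, 4.58% and 3.31% in shGXYLT2. RAB8A was thus the bulk of RAB8 RNA in every library, and the summed level of the class overlapped between groups, at 764 to 786 CPM and 767 to 778 CPM.

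RAB8B was the only one called of 11 tested members of this class (9.09%, against 12.2% of all genes). The other 10 (RAB4B, RAB10, RAB11A, RAB11B, RAB12, RAB13, RAB14, RAB15, RAB35, RAB8A) had log2 fold changes of -0.20 to 0.10. The recycling endosome members RAB11A and RAB11B had 118 ± 3.24 and 51.7 ± 2.97 CPM in shControl and 117 ± 3.06 and 49.6 ± 4.02 CPM in shGXYLT2. RAB15, which acts between early and recycling endosomes, came closest to the threshold among all members that missed it. It had 31.0, 31.9 and 29.9 CPM in shControl and 27.3, 24.6 and 28.8 CPM in shGXYLT2, lower without overlap (log2 fold change -0.20, edgeR adjusted p = 0.122). It passed without shGXYLT2 replicate 3 (0.0374) and with GC and length offsets (0.0335).

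**Figure D3:**
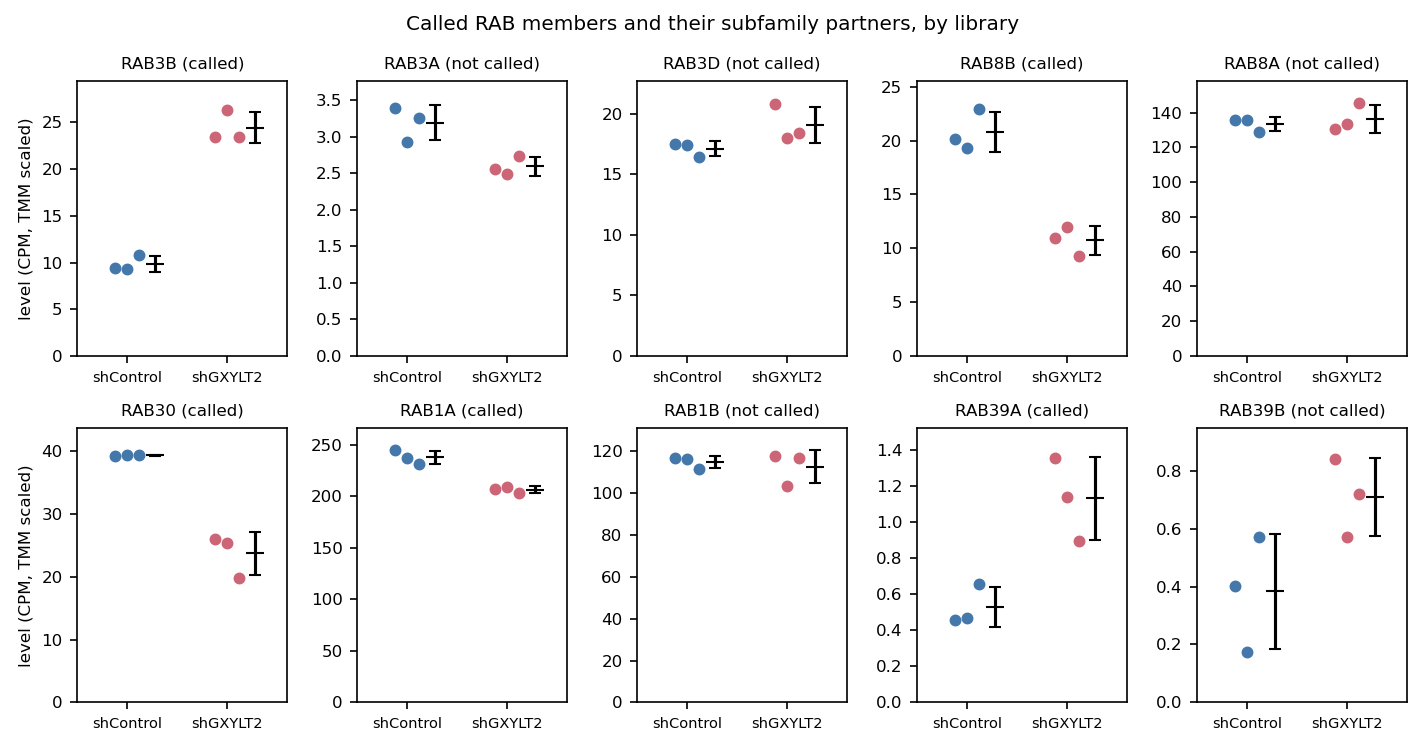
Level in CPM of the 5 called members and of their tested subfamily partners in each library (points, blue for shControl and red for shGXYLT2), with the mean and SD of 3 libraries as bars and every axis starting at 0. The groups stand apart for the called RAB3B, RAB8B, RAB30, RAB1A and RAB39A and also for the uncalled RAB3A and RAB3D. Those of RAB8A, RAB1B and RAB39B overlap.

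The ER and Golgi class held 2 members that fell and none that rose among 12 tested (RAB1A, RAB1B, RAB2A, RAB2B, RAB6A, RAB6B, RAB18, RAB30, RAB33B, RAB34, RAB36, RAB43), with a median log2 fold change of -0.018. The share called was 16.7% of these 12, against 12.2% of all genes. RAB30 (ENSG00000137502, chr11:82973133-83071923, minus strand), which resides on the Golgi, had 39.1, 39.4 and 39.3 CPM in shControl and 26.05, 25.3 and 19.8 CPM in shGXYLT2. The shControl libraries were nearly equal, and shGXYLT2 replicate 3 was the lowest. The means were 39.3 ± 0.143 and 23.7 ± 3.44 CPM (SD, n = 3), 1.65-fold lower (log2 fold change -0.73, SE 0.0916, 95% interval -0.92 to -0.53, edgeR adjusted p = 2.5e-05). It passed under all 13 alternatives.

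RAB1A (ENSG00000138069, chr2:65070696-65130331, minus strand), the ER-to-Golgi GTPase, fell by less. It had 244.7, 237.6 and 231.9 CPM in shControl and 207.7, 209.6 and 202.9 CPM in shGXYLT2, without overlap. The means were 238 ± 6.43 and 207 ± 3.42 CPM (SD, n = 3), 1.15-fold lower (log2 fold change -0.20, SE 0.055, 95% interval -0.32 to -0.09, edgeR adjusted p = 0.0198). The call ended without shControl replicate 1 (adjusted p = 0.152), 2 (0.0806) or 3 (0.0513), without shGXYLT2 replicate 1 (0.0604) and with replicate numbers as a block (0.0622). Its exons share 757 bases with CEP68 on the other strand, and since the strand setting of the counting is not given in the sources used here, reads of the 2 genes may not be separable there. CEP68 had 22.7 CPM in shControl and 24.0 CPM in shGXYLT2, with no call (edgeR adjusted p = 0.694).

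RAB1B (chr11:66268533-66277492, plus strand), which shares the role of RAB1A, had 116.8, 116.1 and 111.5 CPM in shControl and 117.5, 103.5 and 116.8 CPM in shGXYLT2. The RAB1B groups overlapped, with a log2 fold change of -0.03 (95% interval -0.16 to 0.11, edgeR adjusted p = 0.837). RAB1A made up 61.7% ± 0.283 of the pair's signal per gene length in shControl and 58.8% ± 2.02 in shGXYLT2. The class summed to 925, 915 and 900 CPM in shControl and 878, 854 and 825 CPM in shGXYLT2, without overlap. Without RAB1A the sums of 681, 677 and 669 CPM met those of 670, 645 and 623 CPM. RAB2A and RAB6A, abundant Golgi members, had 144 ± 1.30 and 119 ± 1.55 CPM in shControl and 144 ± 6.61 and 115 ± 0.876 CPM in shGXYLT2. RAB43 shares 3956 exon bases with the readthrough gene ISY1-RAB43, so its own level is uncertain.

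In the class of late endosomes, lysosomes and related organelles, RAB39A rose and none of the 10 tested members fell. This made 10.0% called, against 12.2% of all genes. RAB39A (ENSG00000179331, chr11:107928503-107963482, plus strand), known from phagosomes and lysosomes, was close to the detection limit, with 8, 8 and 15 counts in shControl and 34, 28 and 20 counts in shGXYLT2. These are 0.460, 0.469 and 0.660 CPM against 1.36, 1.14 and 0.898 CPM, without overlap. The log2 fold change was 1.07 (SE 0.340, 95% interval 0.36 to 1.78, 2.10-fold, edgeR adjusted p = 0.0454). The call ended without any 1 of the 3 shControl libraries (adjusted p of 0.168, 0.147 and 0.0816) and without shGXYLT2 replicate 1 (0.167) or 2 (0.0999). It also ended with no filter on low counts (0.0515), with replicate numbers as a block (0.0730), in limma-voom (0.0541) and in DESeq2 (0.199).

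RAB39B (chrX:155258241-155264589, minus strand), its paralog and a gene known from neurons, had 7, 3 and 13 counts in shControl and 21, 14 and 16 counts in shGXYLT2. These are 0.402, 0.176 and 0.572 CPM against 0.839, 0.570 and 0.719 CPM, which overlap narrowly (log2 fold change 0.83, 95% interval -0.06 to 1.71, edgeR adjusted p = 0.233). The class's abundant members were RAB7A and RAB29, a partner of the kinase LRRK2, which had 43.5 ± 1.64 CPM in shControl and 39.1 ± 1.95 CPM in shGXYLT2. The melanosome and lysosome-related organelle members RAB32 and RAB38 had 14.8 ± 0.121 and 0.627 ± 0.554 CPM in shControl and 15.1 ± 0.426 and 0.458 ± 0.0968 CPM in shGXYLT2.

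Of the early endosome members, 0 of 6 tested genes passed edgeR's test, 2 were at an unadjusted p below 0.05, and limma-voom and DESeq2 called 0. RAB21, which traffics integrins, had 38.5, 34.04 and 39.6 CPM in shControl and 33.6, 33.1 and 32.6 CPM in shGXYLT2 (log2 fold change -0.18, edgeR adjusted p = 0.148). RAB20, a member of phagosomes and endosomes, had 1.78, 1.76 and 2.02 CPM in shControl and 1.52, 0.937 and 1.26 CPM in shGXYLT2 (log2 fold change -0.59, edgeR adjusted p = 0.154). Both were lower in every shGXYLT2 library than in any shControl library. The RAB5 genes, which define the early endosome, had log2 fold changes of 0.02 for RAB5A, -0.05 for RAB5B and -0.06 for RAB5C.

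Among the smaller classes, RAB23, a regulator of Hedgehog signalling, and RAB28, a ciliary member, had 43.3 ± 2.17 and 12.98 ± 0.739 CPM in shControl and 46.1 ± 2.897 and 14.8 ± 1.17 CPM in shGXYLT2. RAB23 shares 2842 exon bases with BAG2 on the other strand. RAB40B and RAB40C, which bind ubiquitin ligases through a SOCS box, had log2 fold changes of -0.10 and 0.11. RAB6D, a retrocopy of RAB6A whose reads may be split with its parent, had a log2 fold change of 0.60 (edgeR adjusted p = 0.336). In these classes edgeR, limma-voom and DESeq2 called 0 members, and 0 were at an unadjusted p below 0.05 in any of the 3 tools.

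For the 45 uncalled members the data limit the size of a change to differing degrees. Their log2 fold changes ran from -0.59 to 0.83. The 95% interval lay inside -0.5 to 0.5 for 33 of them and inside -1 to 1 for 39. Of all tested members, called or not, 33 had 10 CPM or more in shControl, with a median SE of 0.073. Of those 33, 30 lay within 0.2 of 0. Below 1 CPM there were 7, among them the called RAB39A, with a median SE of 0.41. With an SE of that size a change of 2-fold may be missed at this depth.

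The word GACTCAT was found in the 3' UTR of 6 of 50 tested members (12%), against 1143 of 12558 tested genes with an annotated 3' UTR of at least 100 bases (9.10%), on the transcript strand only. Besides RAB3B, RAB8B and RAB30 it was in RAB21, RAB22A and RAB27A, whose log2 fold changes were -0.18, -0.02 and 0.17. Of the members that fell 2 of 3 held it, against 25.6% of all genes that fell, and of those that rose 1 of 2 held it, against 5.88% of all genes that rose. Of the 131 tested RAB regulators listed below, 12 (9.16%) held it, with 0 of the 8 that fell and 1 of the 3 that rose. RAB3B, with 3 copies, rose. The median 3' UTR length was 8418 bases for members with the word and 2020.5 bases for those without, so the word and UTR length go together here. A match shows letters only, and no test was made of it, because the word came from these data.

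**Figure D4:**
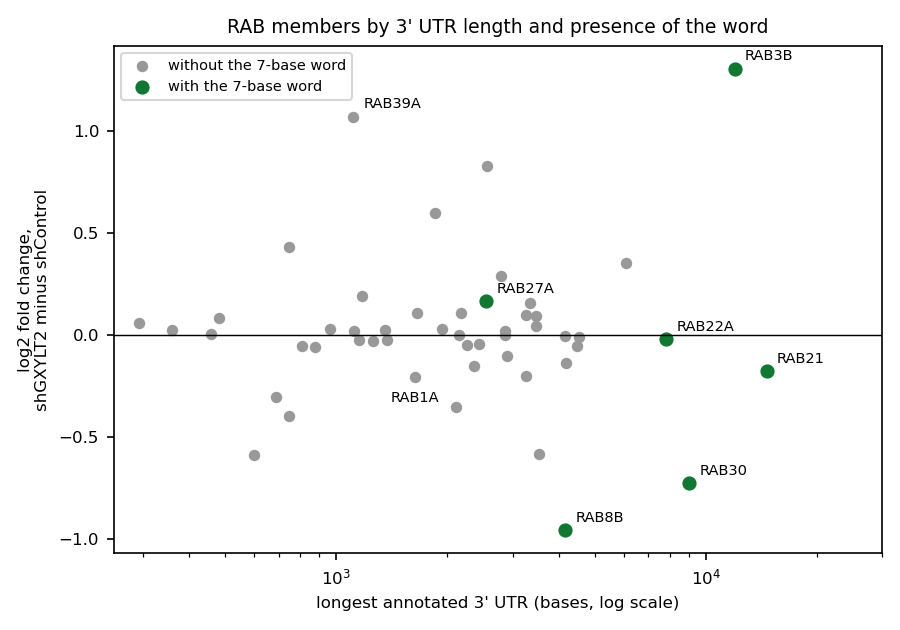
Log2 fold change (shGXYLT2 minus shControl) of the 50 tested RAB members against the length of their longest annotated 3' UTR in bases (log scale), with green points for the 6 members that hold the 7-base word. The green points lie mostly at long 3' UTRs and on both sides of 0, from -0.96 for RAB8B to 1.31 for RAB3B.

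Genes that act on RAB proteins changed in small numbers too. Of 144 listed regulators and effectors 131 were tested, and 3 rose and 8 fell (8.40% called, against 12.2% of all genes), with a median log2 fold change of -0.038. The largest size among the called ones was 0.54. The list covers lipid attachment and membrane recycling (8 tested), exchange factors (37), GTPase-activating proteins (35) and effectors (51).

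RABGGTB, the catalytic subunit of the geranylgeranyl transferase that attaches the RAB lipid, fell. It had 331, 309 and 317 CPM in shControl and 260, 305 and 263 CPM in shGXYLT2, a narrow separation (log2 fold change -0.21, SE 0.064, edgeR adjusted p = 0.0396). Its call held under 6 of 13 alternatives, and ended without any 1 shControl library (adjusted p of 0.208, 0.0860 and 0.120) without shGXYLT2 replicate 1 (0.174) or 3 (0.0598), with upper-quartile factors (0.0584) and with replicate numbers as a block (0.0719). Its partner subunit RABGGTA had a log2 fold change of 0.03 (edgeR adjusted p = 0.883). The escort proteins CHM and CHML, which present new RABs to the transferase, had log2 fold changes of -0.11 and -0.15 (edgeR adjusted p of 0.575 and 0.163). GDI2, a GDP dissociation inhibitor, had 592 ± 21.6 CPM in shControl and 603 ± 17.01 CPM in shGXYLT2, and did not pass the test (edgeR adjusted p = 0.813).

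Of 37 tested genes listed as exchange factors, 3 fell and none rose (8.11% called, against 12.2% of all genes). The role classes come from a gene list, and no exchange or GTPase-activating activity was measured. HPS1, which with HPS4 activates RAB32 and RAB38, had 37.3, 39.9 and 38.7 CPM in shControl and 30.2, 28.1 and 32.2 CPM in shGXYLT2 (log2 fold change -0.36, edgeR adjusted p = 0.0040). C9orf72, which works in a complex with SMCR8 and WDR41, had 14.8, 14.8 and 15.7 CPM in shControl and 10.9, 12.4 and 11.3 CPM in shGXYLT2 (log2 fold change -0.39, edgeR adjusted p = 0.0138). RIN1, an activator of RAB5, had 6.26, 6.56 and 5.85 CPM in shControl and 4.28, 3.87 and 4.67 CPM in shGXYLT2 (log2 fold change -0.54, edgeR adjusted p = 0.0190). None of the 3 overlapped between groups. HPS1 passed under all 13 alternatives, whereas C9orf72 missed without shControl replicate 3 (0.0857) or shGXYLT2 replicate 1 (0.0680). RIN1 missed without shControl replicate 1 (0.0688) or 2 (0.0739), without shGXYLT2 replicate 1 (0.0539) or 2 (0.0615), and in DESeq2 (0.0697).

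Of 35 tested genes listed as GTPase-activating proteins, TBC1D7 rose and none fell (2.86% called, against 12.2% of all genes). TBC1D7 has a RAB-GAP domain and is also a subunit of the TSC complex, and it had 16.04, 16.5 and 17.9 CPM in shControl and 19.5, 21.6 and 21.5 CPM in shGXYLT2, without overlap (log2 fold change 0.31, edgeR adjusted p = 0.0293). It missed without shControl replicate 1 (0.148), 2 (0.106) or 3 (0.0547), without shGXYLT2 replicate 2 (0.0700) and in DESeq2 (0.0711). DESeq2 called 0 of the class, with 2 genes at an unadjusted p below 0.05.

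Of 51 tested genes listed as effectors, 4 fell and 2 rose (11.8% called, near the 12.2% of all genes). BICD2, which links RAB6 vesicles to dynein, had 118.8, 116.6 and 112.3 CPM in shControl and 89.0, 87.0 and 91.0 CPM in shGXYLT2 (log2 fold change -0.38, edgeR adjusted p = 2.5e-04). The RAB5 effectors APPL1 and RABEP1 fell, APPL1 from 85.5 ± 1.29 to 64.4 ± 7.95 CPM and RABEP1 from 78.1 ± 1.01 to 65.0 ± 2.02 CPM (log2 fold changes of -0.41 and -0.27, edgeR adjusted p of 0.0016 and 0.0078). RAB11FIP2, a RAB11 effector, fell from a mean of 23.1 ± 1.66 to one of 17.4 ± 1.89 CPM (a log2 fold change -0.41, edgeR adjusted p = 0.0080). These 4 genes were lower in every shGXYLT2 library than in any shControl library, and BICD2 and APPL1 passed under all 13 alternatives. RABEP1 missed without shControl replicate 1 (0.0506) or 3 (0.0547), and RAB11FIP2 without shControl replicate 3 (0.0693).

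LRRK2, a kinase that binds RAB29 and phosphorylates several RABs, rose. It had 10.5, 9.84 and 11.2 CPM in shControl and 16.7, 16.5 and 12.2 CPM in shGXYLT2 (log2 fold change 0.52, edgeR adjusted p = 0.0076), and missed only without shControl replicate 2 (0.0516). RIMS4, the other listed effector that rose, is a short RIM protein that lacks the RAB3-binding region of its longer relatives. Its place in the list thus does not show that it binds RAB3. RIMS4 had 43.9, 42.8 and 39.0 CPM in shControl and 48.4, 46.5 and 53.6 CPM in shGXYLT2 (log2 fold change 0.24, edgeR adjusted p = 0.0421). RIMS4 missed without any 1 shControl library (0.0831, 0.102 and 0.232), without shGXYLT2 replicate 1 (0.0778) or 3 (0.0711), with replicate numbers as a block (0.0846) and in DESeq2 (0.0652). The RAB3 effector RPH3A and the RAB27 effectors SYTL1, SYTL2, SYTL3, SYTL5, MLPH and MYRIP had too few counts to be tested.

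**Figure D5:**
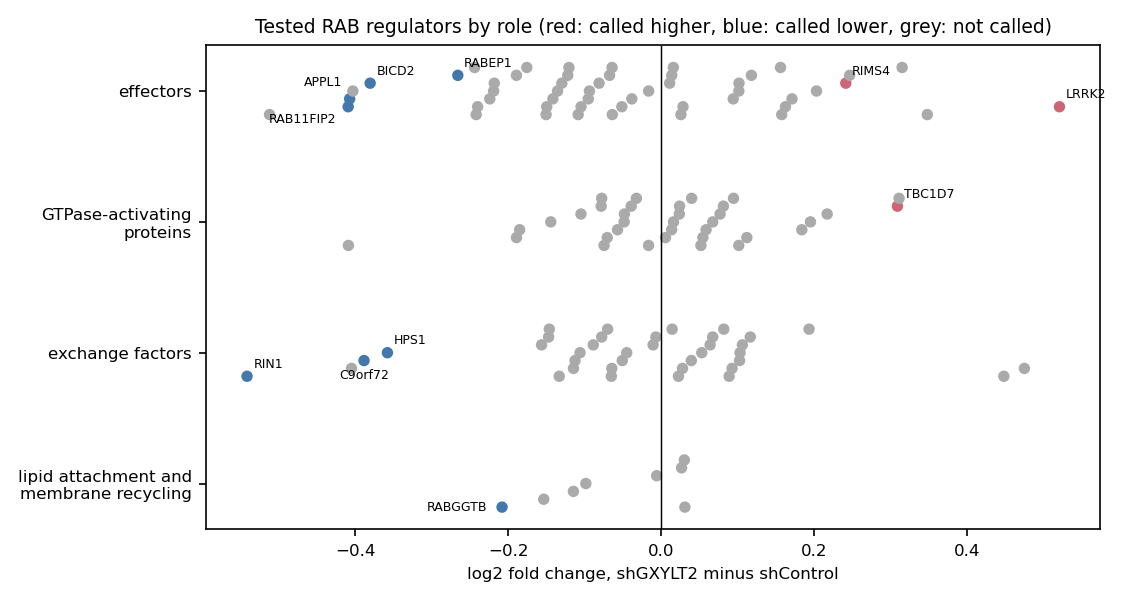
Log2 fold change (shGXYLT2 minus shControl) of the 131 tested RAB regulators by role, 1 point a gene, spread vertically only to keep points apart; red marks genes called higher and blue genes called lower. The called genes lie between -0.54 (RIN1) and 0.52 (LRRK2), among grey points of like size.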

How the data were processed

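The deposited table gives estimated counts per gene, of which 12.3% were not whole, and they were rounded for the tests. Per the submitters' processing notes, fastp, HISAT2, StringTie and GRCh38.p13 were used. Their roles and versions, the annotation and the strand setting are each not given in the sources used. Per the labels' protocols, RNA was extracted with TRIzol and made into stranded mRNA libraries. Identifiers were matched to GENCODE 29 (58279 of 62703 genes, 92.9%), which gave coordinates and 3' UTRs on GRCh38.

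Counts were tested with edgeR 4.0.16 in R 4.3.3 (TMM factors, filterByExpr, robust quasi-likelihood fit, group only), and p-values were adjusted by Benjamini-Hochberg over 15693 genes with a threshold of 0.05. CPM is TMM-scaled, and CPM per kilobase uses the deposited gene length, whose definition is not given in the sources used here. Each SE is the size of the log2 fold change divided by the square root of the F statistic of edgeR's test, an approximation. Intervals of log2 fold changes use this SE and edgeR's degrees of freedom. The common biological coefficient of variation was 6.50%. No library repeated another: the chi-square per degree of freedom was 1.96 to 4.00 within shControl and 5.94 to 11.1 within shGXYLT2. Between libraries of different groups it was 8.63 to 18.9, a range that overlaps the one within shGXYLT2. The script was tested on simulated data. Tried as alternatives were upper-quartile factors, no filter, at least 1 CPM in 3 libraries, limma-voom (limma 3.58.1), DESeq2 1.42.0, the replicate number as a block, GC and length offsets (96.3% of genes with a value), and leaving out each library in turn.

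Members and gene lists were chosen with earlier results of these data known. Named with values are called members, their tested subfamily partners, the 5 highest per length, the 3 nearest above the threshold, called regulators (up to 5 per direction and role) and GDI2, CHM, CHML, RABGGTA and RABGGTB; other members named were chosen after their values were seen. A marker list and 1 regulator are not reported here.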

Additional observations from a re-analysis of the deposited data

How the results depend on the processing

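RAB3B, RAB8B, RAB30 and the drop in GXYLT2 held under all 13 alternatives, and no named member or regulator that passed the test changed direction. Of the named genes that did not pass, 8 changed sign when 1 library was left out (RAB1B, RAB5C, RAB7A, RAB8A, RAB34, CHM, GDI2, RABGGTA), all with log2 fold changes between -0.11 and 0.03 over all libraries. The count of members that rose (2) was 1 with no filter, with at least 1 CPM in 3 libraries, in limma-voom and in DESeq2, and 1 to 2 when a library was left out. The member lost was RAB39A, which the filter of 1 CPM leaves untested. The count of members that fell (3) was 6 with GC and length offsets, which added RAB15, RAB18 and RAB29, and 2 to 4 when a library was left out. Regulators that rose (3) were 5 with upper-quartile factors, 9 with GC and length offsets, 1 in DESeq2 and 0 to 6 when a library was left out. The count of 0 came without shControl replicate 2, where edgeR left 6 higher at an unadjusted p below 0.05. Regulators that fell (8) were 10 with GC and length offsets, 7 with upper-quartile factors, 7 in DESeq2 and 4 to 8 when a library was left out. Over all genes, 1907 calls became 3074 with GC and length offsets and 960 to 2347 when a library was left out, with the lowest counts without shControl replicate 3 (960), 1 (990) or 2 (1152). The cause of these shifts was not tested.

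With the replicate number as a block, 1 member rose and 2 fell, 2 regulators rose and 7 fell, and 1471 genes were called in all. The replicate numbers are those of the sample titles, which differ in part from the numbers in the deposited column names. Deviations of libraries with the same number had correlations of 0.0066, -0.036 and -0.012. Not every library correlated best with its own number. The labels do not say that equal numbers pair the libraries, and correlations so near 0 from so few libraries cannot decide it.

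Depth limits the low members: below 1 CPM the median SE was 0.41, against 0.073 at 10 CPM or more.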

Other observations

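Relatives of the family whose symbols fall outside the name pattern were listed as well, 9 in all with 8 tested. Of these IFT27, a RAB-like GTPase of the intraflagellar transport complex in cilia, rose from 9.01 ± 0.366 to 11.8 ± 0.771 CPM (SD, n = 3; log2 fold change 0.39, edgeR adjusted p = 0.0232, range over alternatives 0.0160 to 0.0945). It was singled out after its values were seen, and it missed the threshold without any 1 shControl library (0.0611, 0.0888 and 0.0945), without shGXYLT2 replicate 1 (0.0562) and in DESeq2 (0.0781). IFT22, a second RAB-like subunit of that complex, had a log2 fold change of 0.10 (edgeR adjusted p = 0.480). RABL2B, which binds the same complex, had a log2 fold change of 0.23 (edgeR adjusted p = 0.0808).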
